A study of Mus musculus with 5 samples.

Results

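A library of mouse KSL cells transduced with a retrovirus directed against the long non-coding RNA LncHSC-2 was compared with a library of KSL cells that received the control virus. The values were those of 38166 features deposited for both libraries. The comparison took the 9119 features whose mean FPKM of the 2 libraries was at least 5; FPKM, fragments per kilobase of transcript scaled to library depth, is a level that takes transcript length into account. Of these features 7939 were named genes, 725 carried symbols of predicted or small RNA type and 455 were unnamed transcript models. Rnf157, at a mean of 4.9998 FPKM, lay just outside, and B3gntl1, at a mean of 5.00399 FPKM, just inside.

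The series holds 5 libraries, of which 3 are of KSL cells and 2, of granulocytes, were not used. All 3 KSL libraries came from C57BL/6 mice that had been given 5-fluorouracil, whose Sca-1+ marrow cells were transduced with a retrovirus carrying green fluorescent protein and cultured in stem cell factor (10 ng/ml) and thrombopoietin (100 ng/ml) for 2 days. KSL cells that carried the fluorescent marker were then sorted and their polyA RNA was sequenced. The viruses were the knockdown control, one against LncHSC-2 and one against LncHSC-1, and there was 1 library of each. The labels used here do not state the age of these mice, how many contributed to each library or the sequences of the knockdown constructs. With 1 library a side there was no replicate check and no test: every difference is one between 2 libraries, and library and virus cannot be told apart. The columns of both knockdown tables are headed Ldt and Linc3, names that differ from the labels; which knockdown each table holds rests on the sample that GEO attaches it to, LncHSC-2 for Ldt and LncHSC-1 for Linc3. The LncHSC-1 library, a second knockdown made the same way, is given beside the genes described to show which of the 3 libraries stood apart, and values in groups of 3 are in the order control, LncHSC-2, LncHSC-1. It shares the control library, so agreement between both knockdowns against control has no independent weight.

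KSL cells are marrow cells that lack the markers of mature lineages and carry c-Kit and Sca-1. They include the blood stem cells and the earliest progenitors, and 5-fluorouracil, which kills dividing cells, leaves a marrow rich in them. Long non-coding RNAs are transcripts without a protein product, some of which act in the nucleus by bringing proteins to DNA. The comparison sought genes whose level differs with the knockdown of LncHSC-2. General knowledge of the published study, not the sources used here, links this RNA to the binding of the E protein E2A, the product of Tcf3, a helix-loop-helix factor that acts through sites called E-boxes and is held back by the Id proteins.

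The promoters of the genes that stood lowest are shown because an E-box is the site through which E2A acts. The letters searched were CAGCTG, which reads the same on both strands, and CAGGTG on either strand. The window was 250 bases before to 50 after the start of the gene, from RefSeq promoters of build GRCm38.p6, and matches are in capitals. The first 3 belong to Acly (chr11:100527951-100528250, minus strand), Gtf2a2 (chr9:70012298-70012597, plus strand) and Mrps21 (chr3:95871465-95871764, minus strand), the genes with the largest deficit in the LncHSC-2 library against both other libraries. The last, chosen to show a match, belongs to Dnajb9 (chr12:44210019-44210318, minus strand), another low gene.
Acly: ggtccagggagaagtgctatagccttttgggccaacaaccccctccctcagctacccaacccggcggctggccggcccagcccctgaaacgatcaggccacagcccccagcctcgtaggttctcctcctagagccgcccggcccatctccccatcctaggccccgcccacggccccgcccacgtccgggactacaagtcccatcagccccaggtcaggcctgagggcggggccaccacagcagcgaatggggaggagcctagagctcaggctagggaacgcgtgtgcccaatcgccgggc
Gtf2a2: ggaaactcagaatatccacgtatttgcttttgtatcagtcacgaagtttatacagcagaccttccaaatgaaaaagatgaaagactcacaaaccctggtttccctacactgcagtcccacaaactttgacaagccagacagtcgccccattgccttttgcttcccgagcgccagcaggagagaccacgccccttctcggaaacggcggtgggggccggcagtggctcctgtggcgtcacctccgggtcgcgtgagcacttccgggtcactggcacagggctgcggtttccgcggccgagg
Mrps21: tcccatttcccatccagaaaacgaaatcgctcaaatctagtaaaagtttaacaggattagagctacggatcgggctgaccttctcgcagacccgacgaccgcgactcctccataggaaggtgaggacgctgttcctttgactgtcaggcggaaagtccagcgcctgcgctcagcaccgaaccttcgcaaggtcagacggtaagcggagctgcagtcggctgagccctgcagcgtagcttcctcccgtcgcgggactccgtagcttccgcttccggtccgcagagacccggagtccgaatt
Dnajb9: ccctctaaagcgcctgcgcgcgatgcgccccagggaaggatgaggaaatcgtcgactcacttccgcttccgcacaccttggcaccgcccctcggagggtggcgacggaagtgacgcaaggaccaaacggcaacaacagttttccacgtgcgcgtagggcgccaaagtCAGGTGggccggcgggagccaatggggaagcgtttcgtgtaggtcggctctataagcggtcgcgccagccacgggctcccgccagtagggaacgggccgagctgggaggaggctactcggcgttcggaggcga

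Acly, Gtf2a2 and Mrps21 held 0 matches and Dnajb9 held 1, which began at position −83 from the start. Of the 15 lowest named genes 10 had a promoter in the table, and 3 of these, or 30.0%, held a match: Dnajb9, Cenpj and Lgals3. Of the 15 highest 12 had one, and 2, or 16.7%, held a match: Zdhhc9 and Rrm2. Of the 8 genes furthest below both other libraries 5 had a promoter in the table and 0 held a match, and of the 8 furthest above both it was 1 of 6. The share was 26.7% of 6017 promoters of named genes kept and 32.6% of all 27025 promoters. A match is a run of letters, not a bound site, and no match says only that these letters are not in this window.

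The cells had the transcripts behind the sort. Kit was at 67.6, 62.0 and 59.1 FPKM. Ly6a, the gene of Sca-1, was at 1010, 1025 and 1211 FPKM. All 9 KSL markers were at 5 FPKM or more in the control and LncHSC-2 libraries. Markers of other lineages summed to much less (B cells 47.3 and 48.3 FPKM, granulocytes 96.4 and 85.2, control first), except those of megakaryocytes, and the T cell receptor genes Cd3d, Cd3e and Cd3g were below 0.05 FPKM. The estimated depths were 21.0 M, 19.9 M and 24.1 M reads. In bulk RNA, fewer cells of a type and less RNA per cell cannot be told apart.

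Nearly all genes stood at the same level in the LncHSC-2 and the control library, and the few that did not belonged to no single pathway. The log2 ratio of FPKM + 1, which is used throughout and understates the difference of low genes, had a median of 0.00 and an SD of 0.11 over named genes, and 98.5% of them lay within 1.25-fold. Counts by size were 66 genes at least 1.25-fold higher (0.831% of 7939) and 52 lower (0.655%), and 13 at least 1.5-fold higher (0.164%) and 8 lower (0.101%). Of all named genes 51.9% were higher and 48.1% lower by any amount. These shares are the background for the list counts below. At 2-fold, 1 was higher, Hcst (0.0126%), and 1 was lower, Acly (0.0126%). Single genes carry an exact binomial 95% interval of the ratio of estimated reads, which has no pseudocount and covers counting error only. It lay above 0 for 13.3% of named genes and below 0 for 12.8%.

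**Figure D1:**
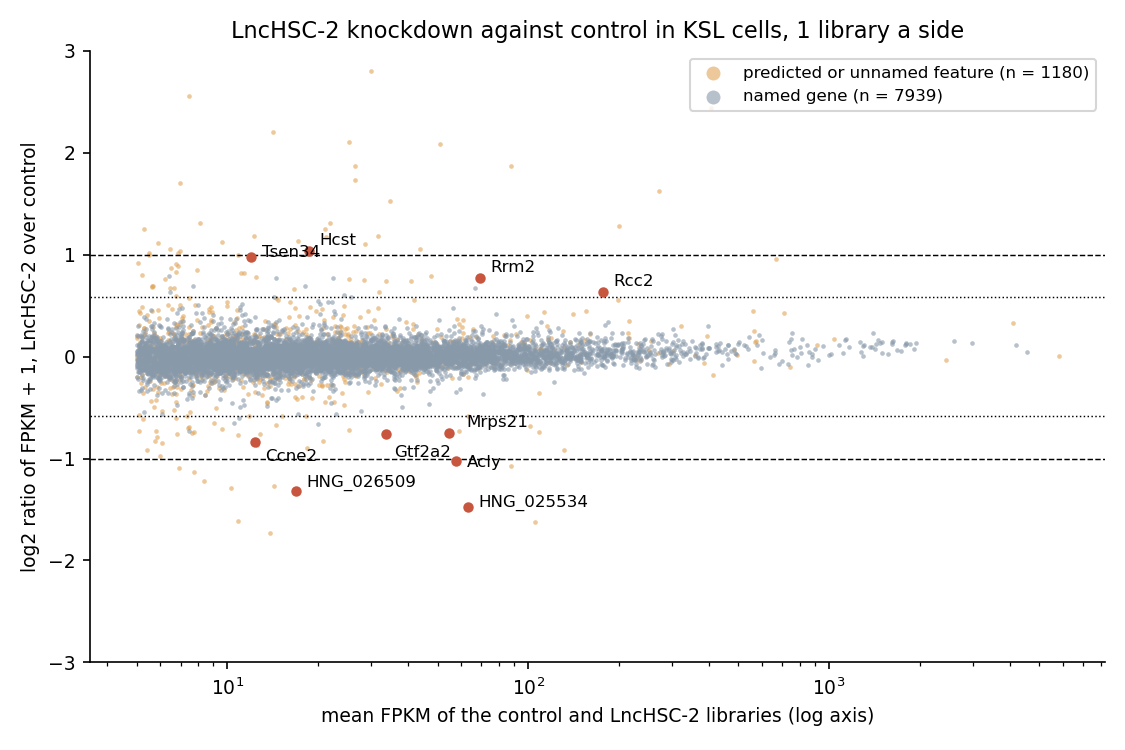
Log2 ratio of FPKM + 1, LncHSC-2 over control library, against the mean FPKM of both libraries (log axis), 1 point a feature. Dashed lines mark 2-fold and dotted lines 1.5-fold; 40 predicted or unnamed features past 3 on the log2 scale are not drawn. Named genes lie in a narrow band, and Acly, Hcst and the unnamed pair HNG_025534 and HNG_026509 stand outside 2-fold.

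The labels do not tie LncHSC-2 to a feature of the tables, and how far the knockdown went is therefore not reported. The well-counted features furthest below control carried no gene name. HNG_025534 was at 93.1, 32.9 and 99.3 FPKM, a log2 ratio of −1.47 against control. HNG_026509, listed at the same position (mm9 chromosome 3, 142679061 to 142737191), was at 24.7, 9.32 and 28.4 FPKM, a ratio of −1.31. In both, the LncHSC-2 library alone was low.

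Overlapping features can divide reads between them, and the sum of the pair removes that. The position held 4051, 1392 and 5249 reads, or −1.46 at the relative depth of the libraries (−1.55 to −1.37), which is 2.75-fold lower. No named gene overlaps the position. Its nearest named neighbours, the kinase gene Pkn2 at a distance of 134093 bases and the LIM-domain gene Lmo4 at 1114303 bases, stood at 0.01 and −0.04. Further along, the guanylate-binding protein genes Gbp7 (−0.02), Gbp3 (−0.06) and Gbp2 (0.12), the aminotransferase gene Ccbl2 (−0.04) and the transcription factor gene Gtf2b (0.10) were also close to control, so the deficit did not extend to the neighbouring genes measured.

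Other unnamed and predicted features were less well supported. Of the 1180, 52 were at least 2-fold higher and 28 lower, against 0.581% and 0.318% of all 9119 features; among the 963 with a mean of at least 50 reads the counts were 7 and 4. HAG_013830, which overlaps the death-associated gene Dap, had 249, 95.3 and 241 reads (−1.14), and HAG_026131, which overlaps Mrpl9, had 108, 47.7 and 117 (−0.91). HAG_017677, over Mrpl14, was low in both knockdown libraries, with 79.0 reads in the control, 27.2 and 32.8. Reads at such positions may be divided between the feature and its gene.

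On the high side the 7SK copy 7SK.292, a match to the small nuclear RNA that restrains transcription elongation, had 19, 96 and 16 reads (2.21, reads 1.70 to 3.21). Only the LncHSC-2 library was high there; 7SK RNA carries no polyA tail and has many near-identical copies, so its counts in polyA RNA are uncertain. HAG_017127, over Srrm2 and Tceb2, HNG_040272, over the predicted Gm15210, and HAG_034414, over Hnrnpf, stood at 1.70, 1.26 and 1.19, with 1.28, 0.49 and 1.67 in the LncHSC-1 library. Their reads may likewise be divided with the overlapping features. HNG_025568 (1.31) shares its position with the pseudogene Rpsa-ps10, and their summed reads, 210.0 in the control, 225 in the LncHSC-2 and 277 in the LncHSC-1 library, gave 0.18 with an interval that includes 0 (−0.10 to 0.46).

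The named genes below control were mostly lowest in the LncHSC-2 library. In some the LncHSC-1 library stood near control, and in others it lay between control and LncHSC-2. Acly, ATP citrate lyase, which turns citrate into the acetyl-CoA used for lipid synthesis and histone acetylation, was at 77.7, 37.8 and 75.5 FPKM. Its ratio to control was −1.02 (reads −1.10 to −0.98, from 8377 and 3851). Against the LncHSC-1 library it stood almost as low, at −0.98 to the nearer of the other libraries.

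Gtf2a2, the small subunit of the general transcription factor TFIIA, was at 42.6, 24.8 and 44.0 FPKM (−0.76, reads −0.96 to −0.61). Mrps21, a protein of the small subunit of the mitochondrial ribosome, was at 69.0, 40.6 and 68.9 FPKM (−0.75, −1.02 to −0.55). The inflammatory chemokine gene Ccl4 was at 9.58, 5.39 and 10.2 FPKM (−0.73, −1.30 to −0.39), on 121 reads in the control and 64 in the LncHSC-2 library. In these 3 genes and Acly, the control and LncHSC-1 libraries lay close together with the LncHSC-2 library below both.

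Those 4 were the only named genes that the LncHSC-2 library held at least 1.5-fold below both other KSL libraries (0.0504% of 7939), and 0 stood 1.5-fold above both (0.0%). At 1.25-fold, 27 were below both (0.34%) and 9 above both (0.113%). The control library, by the same rule, was at least 1.5-fold below both others in 9 genes (0.113%) and above both in 0. The LncHSC-1 library was above both in 28 (0.353%) and below both in 2 (0.0252%), so each library had genes of its own.

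Ccne2, the cyclin E2 gene of the entry into S phase, was also lowest in the LncHSC-2 library, at 16.1, 8.56 and 12.97 FPKM (−0.84, reads −1.06 to −0.77). The LncHSC-1 library lay between. The related cyclin E1 gene, Ccne1, was at 14.0, 15.8 and 15.1 FPKM (0.16), on the other side of control. Among lower ranks, Endod1 was at 27.7, 18.4 and 27.2 FPKM (−0.56, −0.67 to −0.50) and Chchd10, a mitochondrial intermembrane protein gene, at 12.1, 8.57 and 12.95, both apart from both other libraries. Dnajb9, a chaperone of the endoplasmic reticulum, was at 13.4, 8.53 and 11.7 FPKM (−0.60), Ctdspl2, a phosphatase gene, at 13.1, 8.003 and 10.5 (−0.65) and the centriole gene Cenpj at 7.47, 4.72 and 5.86 (−0.57).

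Of the other low genes, Chic2 (−0.56), the deubiquitinase gene Otud4 (−0.53), the galectin gene Lgals3 (−0.49) and the lipid flippase subunit gene Tmem30a (−0.49) had LncHSC-1 values between control and LncHSC-2. Prelid2 was low in both knockdown libraries, at 6.45, 4.1 and 3.61 FPKM. The pseudogene Eif3s6-ps2 (−0.66) rested on 39 and 22 reads and its interval included 0 (−1.57 to 0.05).

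The named genes above control followed another pattern: in most, both knockdown libraries were high and the control library was the one apart. Rrm2, the small subunit of ribonucleotide reductase, which makes the building blocks of DNA, was at 50.9, 87.3 and 91.5 FPKM (0.77, reads 0.71 to 0.85). Rcc2, a regulator of chromosome condensation and mitosis, was at 139, 216 and 220 FPKM (0.64, 0.61 to 0.67), and Gclm, the modifier subunit of the enzyme that begins glutathione synthesis, at 51.0, 82.1 and 76.6 (0.67, 0.59 to 0.77). In each, both knockdown libraries stood together.

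Tsen34, a subunit of the endonuclease that splices tRNA, was at 7.80, 16.3 and 14.97 FPKM (0.97, 0.84 to 1.29). The palmitoyltransferase gene Zdhhc9 was at 4.42, 8.38 and 9.09 FPKM (0.79), Rprd1b, whose product binds the tail of RNA polymerase II, at 16.3, 28.6 and 27.5 (0.77), and Taf11, a subunit of TFIID, at 19.2, 29.7 and 30.6 (0.60). Ydjc (0.70), Spryd4 (0.69), the adaptor gene Shc1 (0.59), the ubiquitin ligase gene Rchy1 (0.55), the histone gene Hist1h4i (0.58) and Pcyox1l (0.77) had LncHSC-1 ratios to control of 0.75, 0.74, 0.48, 0.40, 0.44 and 0.53. Over the 13 genes at least 1.5-fold higher, the ratio of LncHSC-1 to control ran from 0.22 to 0.90, and over the 8 at least 1.5-fold lower from −0.29 to 0.08. Whether the control library or the knockdowns set these values cannot be told apart.

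**Figure D2:**
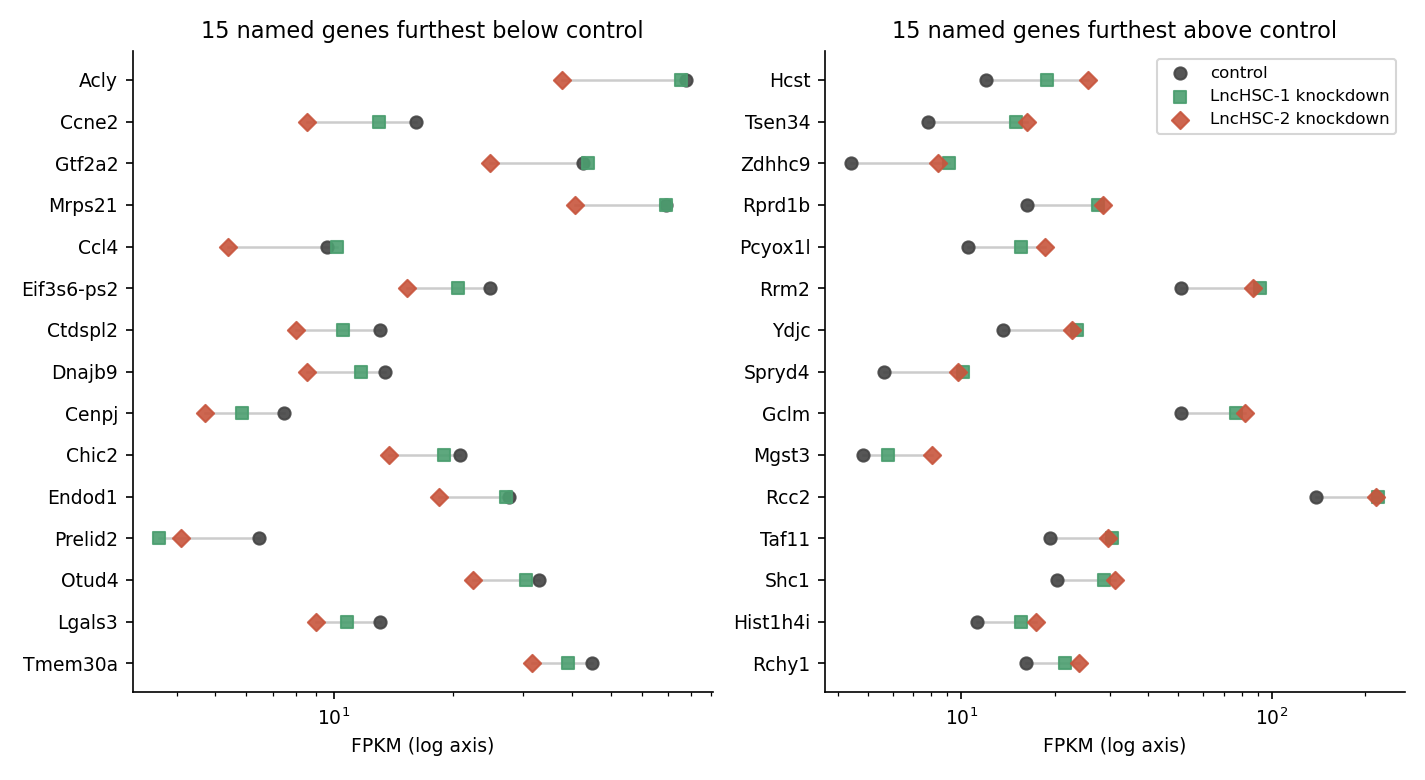
FPKM (log axis) of the 15 named genes furthest below control (left) and furthest above (right) in the control, LncHSC-1 and LncHSC-2 libraries, 1 point a library. On the left the LncHSC-2 library is mostly the lowest, as for Acly at 37.8 against 77.7 and 75.5. On the right the control library mostly lies apart, as for Rrm2 at 50.9 against 87.3 and 91.5.

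Among the 15 highest genes only Hcst and Mgst3 were also at least 1.25-fold above the LncHSC-1 library, Mgst3, a microsomal glutathione transferase gene, at 4.83, 8.07 and 5.79 FPKM on 58 reads in the control. Hcst encodes DAP10, the signalling adaptor of the NKG2D receptor of natural killer and T cells, and was at 12.0, 25.6 and 18.8 FPKM (1.03, reads 0.70 to 1.47, from 85.0 and 170.0). The LncHSC-2 library was the highest and the LncHSC-1 library lay between. Other adaptor and cytotoxic genes kept were closer to control: Tyrobp, the related adaptor DAP12, was at 29.6, 31.2 and 32.2 FPKM (0.07), Fcer1g at 43.9, 44.5 and 49.7 (0.02) and the cytotoxic granule gene Nkg7 at 56.0, 51.8 and 55.2 (−0.11). Of 32 genes of the natural killer adaptor and cytotoxic list found in the files 7 were kept, 4 higher and 3 lower, and Hcst alone was past 1.25-fold. The 25 below the floor pooled to 0.23 (0.04 to 0.41, from 466 and 514 reads).

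Few genes stood above both other libraries. The phosphatase and transcription cofactor gene Eya2 was at 6.59, 9.21 and 6.53 FPKM (0.43). The neutrophil elastase gene Elane was at 8.9998, 13.03 and 9.82 (0.49), and the peroxisomal reductase gene Pecr at 7.59, 10.4 and 7.70. With Hcst, Mgst3, Rdm1, Sec14l2 and Lyrm2 they were the 8 furthest above both, by 0.35 to 0.43 over the nearer library.

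Beyond Acly, lipid genes were slightly below control. Of 25 fatty acid synthesis genes kept, of 35 in the files, 18 were lower and 7 higher, with a median of −0.04 against 0.00 over named genes. Acsl4, which attaches coenzyme A to arachidonic acid, was at 16.1, 11.9 and 14.9 FPKM (−0.40). Acly and Acsl4 were the members at least 1.25-fold lower, against 0.655% of named genes. The list was chosen with earlier results known and Acly is the lowest named gene, so its place in this count has no weight. The elongase gene Elovl5 was at 46.4, 39.4 and 40.6 FPKM (−0.23) and Elovl6 at 19.3, 16.8 and 16.8 (−0.19), about as low in the LncHSC-1 library. Of 25 cholesterol synthesis genes kept 21 were lower and 4 higher, with a median of −0.04 and 0 past 1.25-fold. Among all named genes 48.1% were lower, and the ratio fell with transcript length, as described below. The LncHSC-1 medians against control were −0.04 for fatty acid and −0.05 for cholesterol genes.

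Cell cycle genes as groups were level with control. Of 30 genes for G1 and S phase cyclins, their kinases, inhibitors and E2F factors 11 were higher and 19 lower (median −0.02), with Ccne2 alone past 1.25-fold and E2f5 next at −0.31. Of 47 DNA replication and nucleotide genes 24 were higher and 23 lower (median 0.00), with Rrm2 alone past 1.25-fold; the LncHSC-1 median was −0.11 against control. Of 45 mitosis genes 24 were higher and 21 lower, 0 past 1.25-fold, from Aurka at 0.18 to Bub1 at −0.18.

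E protein genes differed little, and their partners went both ways. Tcf3 was at 39.6, 38.7 and 39.9 FPKM, and the other E protein genes, Tcf4 (−0.05) and Tcf12 (−0.07), were as close. Id1, an inhibitor of E proteins, was lower in both knockdown libraries, at 43.0, 34.5 and 33.8 FPKM (−0.31), whereas Id2 was at 8.78, 9.83 and 10.8 (0.15). Id3, below the floor, was at 1.94, 2.80 and 3.12 FPKM (0.37), on 39 reads in the control and 53 in the LncHSC-2 library. Bhlhe40, a helix-loop-helix repressor, was at 10.7, 8.34 and 10.6 FPKM (−0.33), the only one of 15 members kept past 1.25-fold, of which 5 were higher and 10 lower. Of 30 genes known to be under E protein control in lymphoid progenitors 8 were kept, 5 higher and 3 lower with 0 past 1.25-fold, from Bcl11a at −0.24 to Pou2af1 at 0.19, and the 22 below the floor pooled to 0.01 (−0.06 to 0.08). The LncHSC-1 median of the 8 was 0.37 against control.

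Stem cell genes showed no large difference. Of 27 stem cell transcription factor genes kept 11 were higher and 16 lower (median −0.05), none past 1.25-fold. Of named genes 0.831% were higher and 0.655% lower by that much. Egr1, the member furthest from control, was higher, at 14.0, 17.0 and 19.7 FPKM (0.27), and Lyl1 stood at 0.14. On the low side Msi2 was at 39.1, 33.9 and 34.4 FPKM (−0.20), and Meis1 (−0.16), Mecom (−0.16) and Hlf (−0.14) were similar. Surface and niche genes split 14 and 14, with Slamf1, which encodes CD150, at 10.4, 8.92 and 10.8 FPKM (−0.21), Cd48 at 90.8, 77.6 and 81.3 (−0.22) and Cd34 at 229, 237 and 204 (0.05).

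Megakaryocyte and platelet genes stood above control. Of 33 kept 26 were higher and 7 lower, against 51.9% of named genes higher. Their median was 0.09, which was −0.05 on the deposited count column without centring, where named genes stood at −0.14. Gp9, a subunit of the receptor for von Willebrand factor, was at 17.6, 25.9 and 20.8 FPKM (0.53), and Gp5, of the same receptor, at 12.9, 16.9 and 15.99 (0.36). Itga2b and Itgb3, the chains of the fibrinogen receptor, were at 114, 139 and 140 FPKM (0.28) and at 62.1, 76.9 and 80.3 (0.30). The 10 members below the floor pooled to 0.32 (0.18 to 0.46, from 764 and 900.0 reads). The LncHSC-1 library against control had a median of 0.11 for the same genes, and the LncHSC-2 against the LncHSC-1 library one of −0.01. By these medians the control library lay apart, as for Itga2b and Itgb3, but not every member followed them. Mmrn1, at 18.6, 22.4 and 18.4 FPKM, and F2r, at 68.8, 74.9 and 63.1, were high in the LncHSC-2 library alone. For Gp9 the LncHSC-1 library lay between. The 6 defining markers summed to 498, 613 and 638 FPKM, of which Pf4 alone gave 356, 438 and 467. Ppbp, another of them, was at 7.73, 6.79 and 7.37 FPKM (−0.17), the lowest of the 33 genes kept. Gp6 was below 0.05 in the control and LncHSC-2 libraries. The part of these markers in the result was not tested.

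Ribosomal protein genes were slightly higher. Of 80 cytoplasmic ones kept 73 were higher and 7 lower, against 51.9% of named genes higher, with a median of 0.13. Fau and Rps16 were past 1.25-fold upwards and Rpl12 downwards. Without centring the median was −0.02 on the count column, where named genes stood at −0.14. Rps16 was at 162, 206 and 184 FPKM (0.34), and Rpl32, among the most abundant, at 2832, 3113 and 2774 (0.14). Against the LncHSC-1 library, a comparison without the control, the median was 0.16. Of 76 mitochondrial ribosomal protein genes 57 were higher (median 0.06, or −0.09 without centring), and Mrps21 alone was past 1.25-fold, downwards. Of 81 oxidative phosphorylation genes 57 were higher (0.03, or −0.12 without centring), led by Ndufab1 (0.37). Many of these genes have near-identical pseudogene copies that can share their reads, so single values are uncertain.

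These genes are short, and the ratio moved with length over all named genes. With reads per FPKM as a measure of length and the named genes in 5 classes of equal size, the median went in steps from 0.05 in the shortest class to −0.03 in the longest, and the share of genes higher from 68.6% to 35.6%. Of the 80 cytoplasmic ribosomal protein genes 72 were in the shortest class, with a median of 0.13 and 67 higher, beside the 0.05 of that class; the other 8 had a median of 0.10. The 56 mitochondrial ribosomal genes and the 71 oxidative phosphorylation genes of that class had medians of 0.07 and 0.03. Most lipid genes kept lay outside that class: 23 cholesterol and 22 fatty acid synthesis genes, with medians of −0.04 and −0.05. The ratio also moved with level: in 5 classes by FPKM the median went from −0.01 in the lowest to 0.02 in the highest and the share of genes higher from 46.3% to 62.1%, and cytoplasmic ribosomal protein genes had a median level of 408 FPKM in the control. The part of length and level in these results was not tested further.

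**Figure D3:**
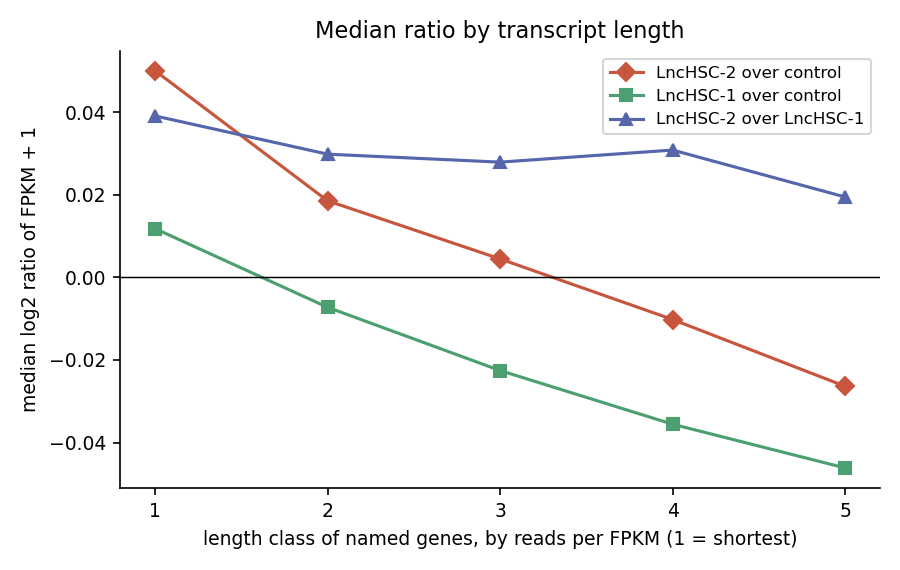
Median log2 ratio of FPKM + 1 of named genes in 5 length classes by reads per FPKM, from shortest (1) to longest (5), for each pair of KSL libraries. LncHSC-2 over control goes from 0.05 to −0.03 and LncHSC-1 over control from 0.01 to −0.05, whereas LncHSC-2 over LncHSC-1 goes from 0.04 to 0.02.

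Transcription machinery showed opposite single genes within level groups. Of 46 general transcription factor genes 24 were higher and 22 lower (median 0.01), with Gtf2a2 low and Taf11 high as the members past 1.25-fold. Of 41 genes for RNA polymerase II and the factors of its tail 19 were higher and 22 lower, with Rprd1b high, and Ctdspl2 and the polymerase subunit gene Polr2k low, the last at 15.97, 11.1 and 14.4 FPKM (−0.48). Of 43 tRNA splicing and modification genes 24 were higher, with Tsen34 and the deaminase gene Adat2 (0.43) past 1.25-fold. Of 17 palmitoyltransferase genes Zdhhc9 alone was. Over named genes 0.831% were at least 1.25-fold higher and 0.655% lower. These lists were chosen with earlier results known, so the presence of such single genes in them has no weight.

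Inflammatory and lymphoid genes above the floor stood near control as groups. Of 50 interferon response genes kept 41 were higher and 9 lower, against 51.9% of named genes higher. Past 1.25-fold there were 0, beside 0.831% of named genes higher and 0.655% lower by that much. Their median was 0.04, or −0.11 without centring, where named genes stood at −0.14. Isg15 was at 286, 331 and 428 FPKM (0.21). The B lineage median over 7 genes was 0.05 and the monocyte, macrophage and dendritic median over 14 genes 0.07, with Ly6c2 at 32.5, 42.3 and 101 FPKM (0.37). Members below the floor went further for B lineage genes, whose 16 pooled to 0.19 (0.07 to 0.30), and the other way for monocyte genes, whose 22 pooled to −0.13 (−0.24 to −0.03). The LncHSC-1 medians against the same control were 0.34, 0.64 and 0.49. Ccl4 was the only one of 7 chemokine genes past 1.25-fold, while Ccl3, of the same family, was at 7.66, 8.60 and 11.3 FPKM (0.15).

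Mature myeloid genes went both ways. Pglyrp1, a neutrophil peptidoglycan-binding protein gene, was at 16.6, 24.1 and 22.7 FPKM (0.51), whereas the neutrophil granule gene Ngp was at 8.13, 5.55 and 7.41 (−0.48) and Chi3l3 at 13.1, 9.53 and 17.5 (−0.42). All 6 mast cell, basophil and eosinophil genes kept were lower, by small amounts, against 48.1% of named genes lower. Their median was −0.09, with the mast cell protease gene Cpa3 at 7.18, 6.21 and 6.55 FPKM. The 20 members below the floor pooled to −0.34 (−0.51 to −0.16, from 639 and 478 reads). Of 17 erythroid genes kept 8 were higher and 9 lower (median −0.01), with 1 past 1.25-fold on each side. They ran from −0.37, for the feature of both adult beta globin genes, to 0.35.

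Stress genes were level apart from a few. Of 36 genes of the unfolded protein and integrated stress responses 22 were higher and 14 lower, with Dnajb9 low and the phosphatase regulator gene Ppp1r15a high, at 9.49, 12.9 and 12.3 FPKM (0.41). Of 26 p53 target genes 12 were higher and 14 lower, with the cell death gene Bbc3 past 1.25-fold at 8.17, 10.9 and 10.0 FPKM (0.38) and Cdkn1a at 58.1, 63.6 and 49.7 (0.13). Among cytokine signalling genes Pim2, a kinase induced by STAT5, was at 52.9, 41.7 and 50.9 FPKM (−0.34), alone past 1.25-fold of 36. By that fold 0.831% of named genes were higher and 0.655% lower.

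Of 14 named long non-coding RNAs kept 7 were higher and 7 lower with 0 past 1.25-fold. The 14 below the floor pooled to −0.26 (−0.43 to −0.11, from 723 and 568 reads). Malat1, an abundant nuclear RNA, was at 53.9, 46.0 and 60.8 FPKM (−0.23), lowest in the LncHSC-2 library, and the small nucleolar RNA host Snhg8 was at 22.03, 25.7 and 19.4 (0.21), highest there. Of 11 histone genes kept 8 were higher (median 0.11), but most histone messages lack a polyA tail and are poorly caught in such libraries. Of 19 immediate early genes 12 were higher (0.08), and of 6 imprinted genes 5 were lower (−0.10, but −0.02 at a floor of 1 FPKM and 0.03 at 20), with Cxx1c at −0.37. Over the T lineage, lymphoid priming, primary granule, erythroid, stroma, BCL-2 family, cytokine signalling, polycomb, glycolysis, TCA cycle and autophagy lists the medians ran from −0.06 to 0.05. Without centring, all of these medians were below 0, and named genes stood at −0.14. Of the lists whose pool below the floor is not given above, the interval lay clear of 0 for histone genes (0.30, 0.16 to 0.45), palmitoyltransferase genes (−0.16, −0.30 to −0.03) and cytokine signalling genes (−0.14, −0.27 to −0.01).

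**Figure D4:**
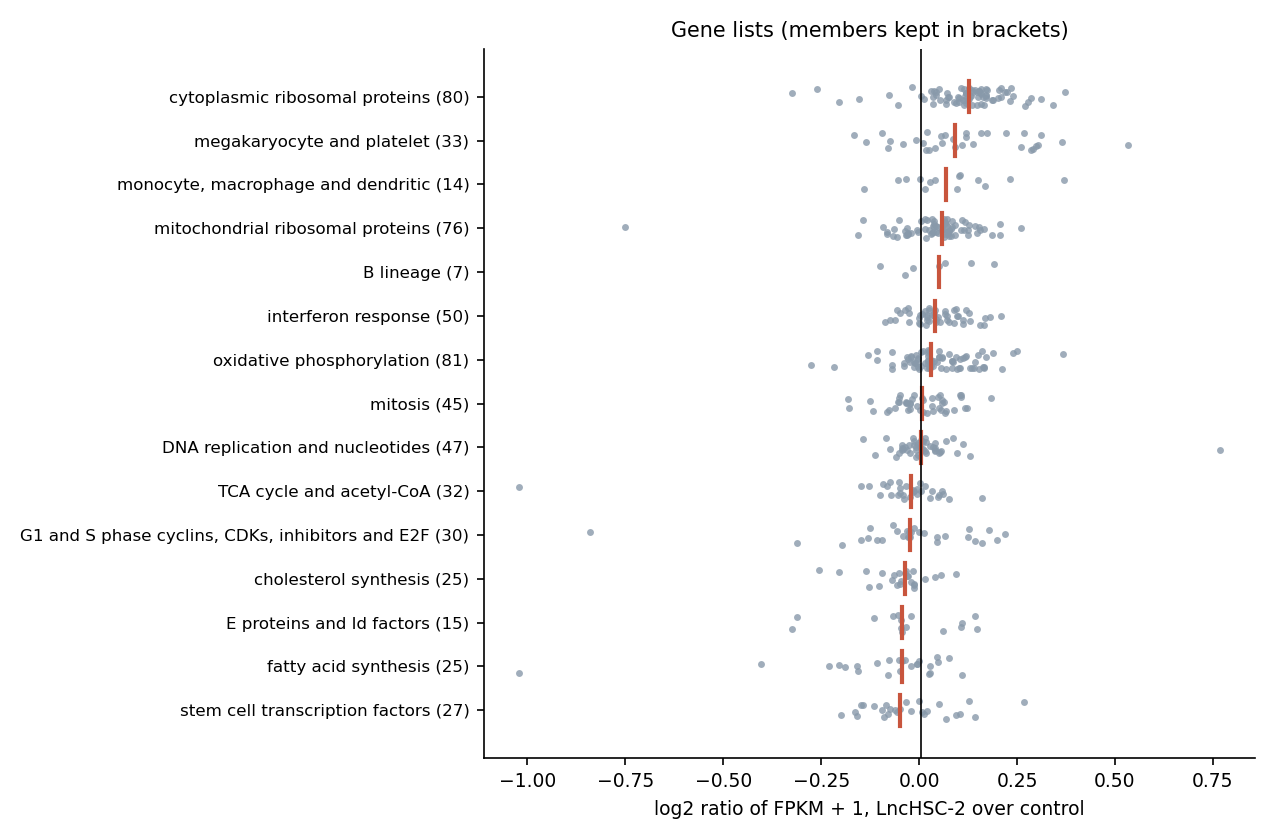
Log2 ratio of FPKM + 1, LncHSC-2 over control library, of the members kept of 15 gene lists, 1 point a gene, with the list median as a red bar and the median of named genes, 0.00, as a black line. Medians lie between −0.05 and 0.13, and the far points are single genes such as Acly, Ccne2, Mrps21 and Rrm2; without centring, the median of named genes on the count column is −0.14 and all list medians move with it.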

How the data were processed

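Levels were the FPKM values as deposited by the authors, per the file headers. The deposited count columns, per the file headers named counts, were treated as a signal, because they are reads multiplied by 1 factor per library: 91.9% to 92.2% of values worth up to 20 reads were whole within 0.1 of a read. Dividing by the value of 1 read gave estimated reads, which entered no count test. The submitters' processing notes name mm9 and DESeq; no name of the aligner or counter, setting for strand or annotation release is given in the sources used here. Positions are the files', in mm9.

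Features were joined on their name and kept at a mean FPKM of at least 5. The log2 ratio used a pseudocount of 1. Intervals are exact binomial at 95% (scipy 1.17.1), at a relative depth of 0.945 given by reads per FPKM, and were checked on simulated data. PCR copies cannot be told from molecules. Median-of-ratios factors were 0.998 and 1.00, so no scaling was applied. Tables were made with pandas 2.3.3 and numpy 2.4.6 and figures with matplotlib 3.10.9.

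Members and 41 gene lists were chosen with earlier results of these data known. Named genes are the 15 highest and 15 lowest, up to 6 furthest and 4 most abundant members of each list, the 8 furthest above and below both other KSL libraries, the 10 highest in FPKM, the 5 highest and 5 lowest predicted or unnamed features with at least 50 reads, and 12 set genes; predicted, microRNA, small nucleolar and mitochondrial symbols are otherwise left out. The neighbours of the unnamed pair, Rpsa-ps10 and Ccl3 as a relative of Ccl4 were named after values were seen. Pseudocounts of 0.1 and 5, floors of 1 and 20 FPKM, median-of-ratios scaling, the count column centred or not, and a minimum of 50 reads were tried. Granulocyte libraries were not used.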

Additional observations from a re-analysis of the deposited data

How the results depend on the processing

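The 30 highest and lowest named genes kept their direction under every alternative that gave them a value (30 each, 14 at a floor of 20 FPKM and 29 with at least 50 reads), whereas counts past a fold moved. Named genes at least 2-fold higher, 1 by the reported measure, were 2 with a pseudocount of 0.1, 0 with 5, 3 at a floor of 1 FPKM, 0 at 20, 2 on the centred count column and 0 on the uncentred one, which was added after seeing the data. Those at least 2-fold lower, 1, were 0 with a pseudocount of 5, 4 at a floor of 1 and 2 uncentred. At 1.5-fold, 13 higher genes became 7 with a pseudocount of 5, 26 at a floor of 1, 6 at 20 and 8 uncentred, and 8 lower ones became 4, 17, 4 and 26. Over all features, 53 at least 2-fold higher became 113 at a floor of 1, 21 at 20, 8 with at least 50 reads and 34 uncentred; 29 lower became 103, 10 and 5 under the first 3 of these. The uncentred column places the median named gene at −0.14, which moved all 41 list medians and turned the positive ones negative. At other settings the medians of small or level lists also changed sign at a floor of 1 or 20, among them immediate early genes (−0.04 at 20), imprinted genes (0.03 at 20) and chemokines (−0.03 at 1). No paired analysis was possible because each group has 1 library. The design cannot separate library from virus, and low features rest on few reads.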
